A study of Homo sapiens with 16 samples.

Results

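The genes described here are the 38 proteasome subunits and activators, taken by gene symbol from the tables of RNA-seq and of ribosome footprints. All 38 were listed among the 23597 genes of the RNA-seq table and among the 19201 genes of the footprint table, and all 38 passed the filter on low counts in both. By role they comprise 7 alpha subunits (PSMA) and 7 constitutive beta subunits (PSMB1 to PSMB7) of the 20S core, 3 immunoproteasome beta subunits (PSMB8, PSMB9 and PSMB10), 6 ATPases (PSMC) and 11 non-ATPase subunits (PSMD) of the 19S cap, and 4 genes of activators (PSME). Both assays were run on WI-38 cells, a human fibroblast line from lung whose divisions end with continued passage. RNA-seq measures transcripts, and Ribo-seq sequences the stretches of mRNA covered by ribosomes, called footprints. Each assay had 4 groups of 2 libraries, which were senescent cells at passage 36 after heat shock, senescent control cells, young cells at passage 24 after heat shock, and young control cells. Heat shock lasted 2 h at 44 °C, which the labels write as 440C. All groups, controls included, had been starved of serum and refed before the day of the experiment, and all come from 1 cell line.

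The 20S core is a barrel of stacked rings. Its outer alpha rings gate the entry of substrates, and its inner beta rings hold the proteolytic sites, which lie on PSMB5, PSMB6 and PSMB7. The 19S cap recognises ubiquitin chains, removes them and unfolds the substrate with its ring of ATPases. Interferon induces PSMB8, PSMB9 and PSMB10, which replace PSMB5, PSMB6 and PSMB7 at the proteolytic sites when new cores assemble, and it also induces PSME1 and PSME2, which together form the activator PA28 alpha/beta. PSME3 forms a nuclear activator (PA28 gamma), and PSME4 is the large nuclear activator PA200. After proteasome inhibition the transcription factor NFE2L1 raises the subunit genes as a group.

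Promoter windows are shown for the genes of the interferon-inducible forms, because the 3 immunoproteasome genes among them had the largest RNA differences between senescent and young controls. Each window holds the 250 bases before and the 50 bases after the annotated start in RefSeq on GRCh38.p14. The authors aligned to another build, so no coordinate of their files was used. Of the 38 genes, 33 had a window in the table. Capitals mark matches to the interferon-stimulated response element (GAAA, any 2 bases, GAAA) or to the gamma-activated site (TTCNNNGAA). Both strands were searched, so that a match to the first on the other strand reads TTTC, 2 bases, TTTC in the window as printed. PSMB8 lies at chr6:32843998-32844297 on the minus strand (the first of its 2 windows), PSMB9 at chr6:32853942-32854241 on the plus strand, PSMB10 at chr16:67936801-67937100 on the minus strand, PSME1 at chr14:24135944-24136243 on the plus strand and PSME2 at chr14:24146561-24146860 on the minus strand.
PSMB8: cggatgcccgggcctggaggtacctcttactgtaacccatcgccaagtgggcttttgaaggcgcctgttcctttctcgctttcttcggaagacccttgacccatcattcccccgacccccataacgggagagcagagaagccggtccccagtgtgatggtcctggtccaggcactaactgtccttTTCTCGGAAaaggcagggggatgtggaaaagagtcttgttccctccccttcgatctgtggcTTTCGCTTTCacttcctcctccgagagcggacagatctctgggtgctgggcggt
PSMB9: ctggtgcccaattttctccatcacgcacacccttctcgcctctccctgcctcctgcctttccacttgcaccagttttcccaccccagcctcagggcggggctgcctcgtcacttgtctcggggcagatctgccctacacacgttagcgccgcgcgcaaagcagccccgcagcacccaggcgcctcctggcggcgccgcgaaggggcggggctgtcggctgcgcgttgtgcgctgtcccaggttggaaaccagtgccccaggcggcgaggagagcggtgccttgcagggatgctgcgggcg
PSMB10: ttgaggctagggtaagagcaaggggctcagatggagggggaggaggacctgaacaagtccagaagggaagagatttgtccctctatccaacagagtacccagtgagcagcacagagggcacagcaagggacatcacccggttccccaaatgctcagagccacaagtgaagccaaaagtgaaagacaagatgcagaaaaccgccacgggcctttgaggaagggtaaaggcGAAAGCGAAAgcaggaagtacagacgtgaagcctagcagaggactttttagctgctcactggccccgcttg
PSME1: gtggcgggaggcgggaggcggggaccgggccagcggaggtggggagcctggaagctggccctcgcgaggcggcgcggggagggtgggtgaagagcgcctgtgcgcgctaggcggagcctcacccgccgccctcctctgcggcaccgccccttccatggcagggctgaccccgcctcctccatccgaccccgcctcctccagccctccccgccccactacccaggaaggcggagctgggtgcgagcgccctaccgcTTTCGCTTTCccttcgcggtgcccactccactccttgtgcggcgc
PSME2: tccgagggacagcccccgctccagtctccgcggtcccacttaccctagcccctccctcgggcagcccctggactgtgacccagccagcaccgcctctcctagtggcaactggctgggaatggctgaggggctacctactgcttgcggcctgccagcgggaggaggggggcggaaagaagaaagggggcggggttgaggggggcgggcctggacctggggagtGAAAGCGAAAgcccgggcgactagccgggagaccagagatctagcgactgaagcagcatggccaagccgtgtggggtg

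With 0 for the annotated start, the interferon-stimulated letters began at −4 in PSMB8, −21 in PSMB10, 5 in PSME1 and −28 in PSME2. PSMB8 also held the gamma-activated letters at −65. PSMB9 and the second window of PSMB8 held neither. The interferon-stimulated letters occurred in 3.57% of all 35116 windows and in 6 of the 33 members (the 4 above, PSMA4 and PSMB4). The gamma-activated letters occurred in 7.66% of all windows and in 7 of 33 members (PSMA2, PSMB5, PSMB8, PSMC4, PSMD2, PSMD3 and PSME3). Heat shock element letters (GAA, TTC and GAA, or TTC, GAA and TTC, each 2 bases apart) occurred in 0.49% of all windows each and in 0 of 33 members. The letters TGACNNNGC, the core of the element bound by NFE2L1 and NFE2L2, occurred in 13.3% of all windows and in 11 of 33 members, and CCAAT in 34.6% and in 17 of 33. Shares of all windows count windows, whereas a member was counted if any of its windows matched. Because 6 members had more than 1 window, the 2 kinds of count are not on the same footing. A match describes the letters of the window and is no measure of binding.

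RNA-seq libraries held 26434514 to 37126871 counts and footprint libraries 4581141 to 9104077. HSPA1A, the inducible cytosolic HSP70 and the check of heat shock, had RNA log2 changes of 7.34 ± 0.26 in senescent and 8.06 ± 0.26 in young cells. Among senescence markers in controls, the cell cycle inhibitor CDKN1A had an RNA log2 difference of 0.95 ± 0.28 between senescent and young cells, LMNB1 (lamin B) one of −1.23 ± 0.48, the proliferation marker MKI67 one of −1.18 ± 0.72 and CDKN2A (p16) one of 0.28 ± 0.29, and none of these 4 passed the threshold (adjusted p 0.43 to 0.91, edgeR's quasi-likelihood test). With the replicate number as a block CDKN1A passed (adjusted p = 0.0148, edgeR's quasi-likelihood test) and the other 3 did not. The 8 fibroblast markers were present in every library. The young control footprint libraries differed far less from each other than the other replicate pairs did, with a chi-square per degree of freedom of 1.73 against 17.2 to 38.7. Levels are given as TPM, the authors' value scaled by length, for comparisons between genes. The length implied by counts and TPM differed between the assays. In RNA its log correlated at 0.85 with transcript length and 0.70 with coding length, and in footprints at 0.62 and 0.98. For comparisons between groups levels are given as CPM, counts relative to a library total scaled by TMM, which sets the bulk of genes equal between libraries. Changes are log2 ratios ± SE from edgeR's quasi-likelihood test (n = 2 libraries per group), and a gene was called at a Benjamini-Hochberg adjusted p below 0.05 over all genes tested.

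The 38 genes together took 0.469% to 0.628% of all RNA counts and 0.814% to 1.02% of all footprint counts. Averaged over the 8 libraries, their RNA ranged between 7.3 TPM (PSMB9) and 532 TPM (PSMB4), and their footprints between 8.4 TPM (PSMB9) and 522 TPM (PSMB1). The 4 genes with the lowest footprint TPM were PSMB9, PSME4, PSMB8 and PSMB10. The 14 constitutive 20S genes had a median of 289 TPM in RNA and 334 TPM in footprints, and the 17 19S genes had 142 TPM in RNA and 162 TPM in footprints. Footprints on the 20S genes, whose products are present in equal numbers in the core, were the more even. Within a library, the highest 20S gene exceeded the lowest by 1.85 to 2.37 times in footprint TPM and by 9.66 to 11.5 times in RNA TPM. For the 19S genes these ranges were 2.71 to 4.02 times in footprints and 11.9 to 38.2 times in RNA. PSMD1, a scaffold of the cap's base, had the lowest footprint TPM of the 17 in all 8 libraries, and PSMD2, the other large scaffold of the base, or PSMD8 had the highest.

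The RNA range depended on the length used. RNA TPM divides by transcript length, whereas footprint TPM divides by a length close to the coding length. The genes lowest in RNA TPM have long transcripts for their coding length. PSMB2, lowest of the 20S genes in most libraries, has 4217 transcript bases and 603 coding bases in GENCODE v29, and PSMD12, lowest of the 19S genes, has 4406 and 1368. The RNA length implied by counts and TPM, over that implied in footprints, was 6.73 times the median gene's for PSMB2 and 2.38 times for PSMD12. It was only 1.31 times for PSMA4 and 0.853 times for PSMC1, although their longest transcripts have 4411 and 4448 bases. The longest transcript thus need not be the length behind RNA TPM. RNA counts were therefore also divided by the length implied by footprint counts and TPM, called the coding length here. The spread within a library was then 2.40 to 4.70 times for the 20S genes and 3.51 to 11.3 times for the 19S genes. This length comes from the footprint values with which the RNA range is compared. Per coding length PSMD12 was still the lowest of the 31 constitutive genes, at 0.306 of their geometric mean. GENCODE v29 is not the annotation the authors used, and its lengths did not enter these ranges. How far untranslated sequence sets the difference from footprints was not tested beyond this.

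**Figure D1:**
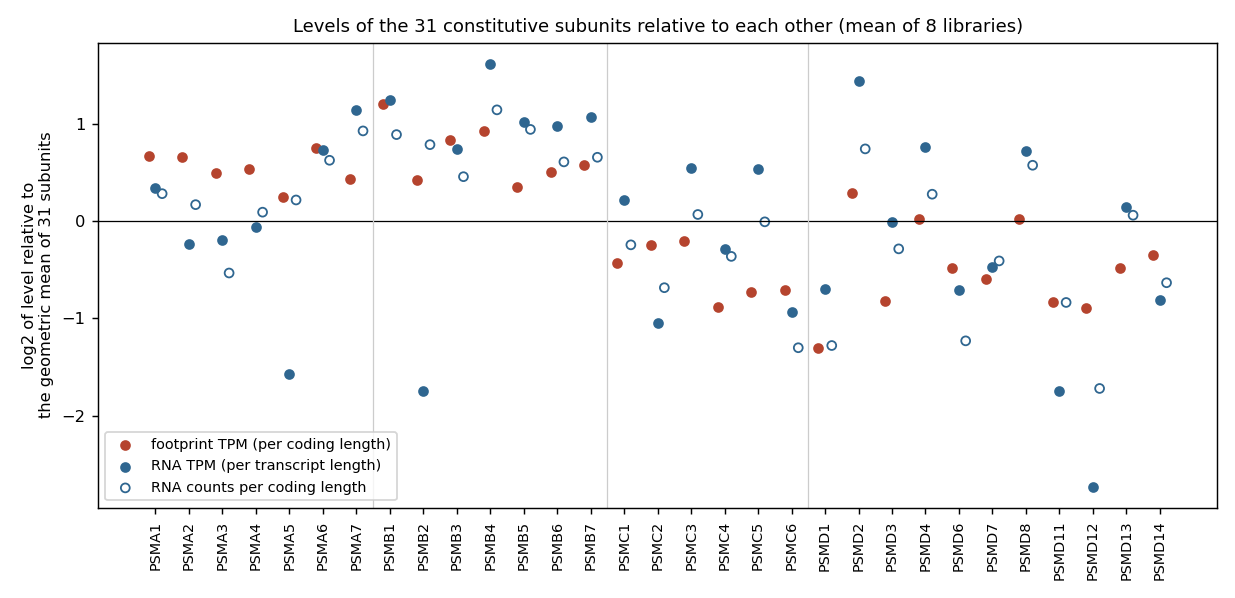
Level of each of the 31 constitutive subunits relative to the geometric mean of the 31, on a log2 scale, averaged over 8 libraries. Measures are footprint TPM (red), RNA TPM (filled blue) and RNA counts per coding length as implied by footprint counts and TPM (open blue). PSMA5, PSMB2, PSMD11 and PSMD12 lie far below the other genes in RNA TPM and closer to them in the other measures.

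In TPM, the most abundant alpha subunit transcript was PSMA7, at 306 and 340.1 TPM in heat-shocked senescent, 394 and 365 TPM in senescent control, 412 and 402 TPM in heat-shocked young and 423 and 414 TPM in young control cells. In TPM both heat-shocked senescent libraries lay below all others, but the log2 change with heat shock in senescent cells was −0.01 ± 0.19 with TMM scaling, and on log2(TPM + 1) the median of all genes itself was −0.18. PSMC3, the most abundant ATPase transcript, had 178 and 240.3 TPM in heat-shocked senescent, 236 and 249 TPM in senescent control, 257 and 288 TPM in heat-shocked young and 269 and 304 TPM in young control cells. PSMD2 had 424 and 537 TPM in heat-shocked senescent, 494 and 527 TPM in senescent control, 422 and 438 TPM in heat-shocked young and 464 and 461 TPM in young control cells. For PSMD2 the heat-shocked senescent libraries spanned those of the senescent controls, and 1 of them, the first, was the lower for all 3 of these genes.

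Among all comparisons in edgeR without a replicate block, members were called only in footprints with heat shock in senescent cells. Footprints on PSMD1 rose and footprints on PSME4 fell, and the other 36 genes did not pass the threshold. These 2 called genes make 5.26% of the 38, against 8.35% of the 11288 genes tested (3.12% higher and 5.24% lower), so the share called was not above the background. At an unadjusted p below 0.05 the share was 57.9% (22 genes), against 28.7% of all genes. The share higher at that p was 55.3% of the 38 (21 genes), against 12.9% of all genes. DESeq2 called 5 of the 38, against 13.2% of all genes, and edgeR with the replicate number as a block called 9, against 14.8%. The 38 genes took 0.900% and 1.02% of all footprint counts in heat-shocked senescent cells and 0.829% and 0.814% in senescent controls, while they took 0.469% and 0.532% of RNA counts in heat-shocked senescent cells and 0.628% and 0.565% in senescent controls. Their share was thus higher in both heat-shocked libraries for footprints and lower in both for RNA. In young cells the RNA share was also lower, at 0.542% and 0.532% after heat shock and 0.609% and 0.610% in controls. The young footprint shares overlapped, at 0.844% and 0.911% after heat shock and 0.882% and 0.910% in controls. These shares are of raw counts, without TMM scaling. In bulk libraries fewer cells of a kind and less RNA per cell cannot be told apart.

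PSMD1 had 401 and 425 footprint CPM in heat-shocked senescent cells and 248 and 203 CPM in senescent controls. The groups did not overlap, and the log2 change was 0.87 ± 0.19 (adjusted p = 0.0299, edgeR's quasi-likelihood test). PSME4 had 101 and 65.4 footprint CPM in heat-shocked senescent cells and 177 and 154 CPM in senescent controls. These groups did not overlap either, and the log2 change was −0.99 ± 0.23 (adjusted p = 0.0387, edgeR's quasi-likelihood test). Of all genes, 26.8% were higher and 27% lower without overlap in this comparison. RNA of the same genes had log2 changes near 0. PSMD1 RNA was at 149 and 171 CPM in heat-shocked senescent cells and 183 and 146 CPM in senescent controls, with a log2 change of −0.04 ± 0.19. PSME4 RNA was at 124 and 102 CPM in heat-shocked senescent cells and 118 and 104 CPM in senescent controls, with a log2 change of 0.02 ± 0.20. The groups overlapped for both RNAs, and the sign of these RNA changes turned with scaling or with 1 library left out.

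Both footprint calls were lost when some single libraries were left out. The adjusted p was 0.0896 for PSMD1 and 0.101 for PSME4 when the 2 young control libraries counted as 1 sample. It was also above the threshold for both without either young control library, either senescent control library or the second heat-shocked senescent library. Both calls were kept without either heat-shocked young library and without the first heat-shocked senescent library. The range over all libraries left out in turn had log2 changes of 0.74 to 1.03 for PSMD1 and −1.37 to −0.74 for PSME4. PSMD1 passed neither with scaling by library size only (0.59 on the log2 scale, adjusted p = 0.0548, edgeR's quasi-likelihood test) nor in limma on log2 TPM (0.55, adjusted p = 0.114), and PSME4 passed both.

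**Figure D2:**
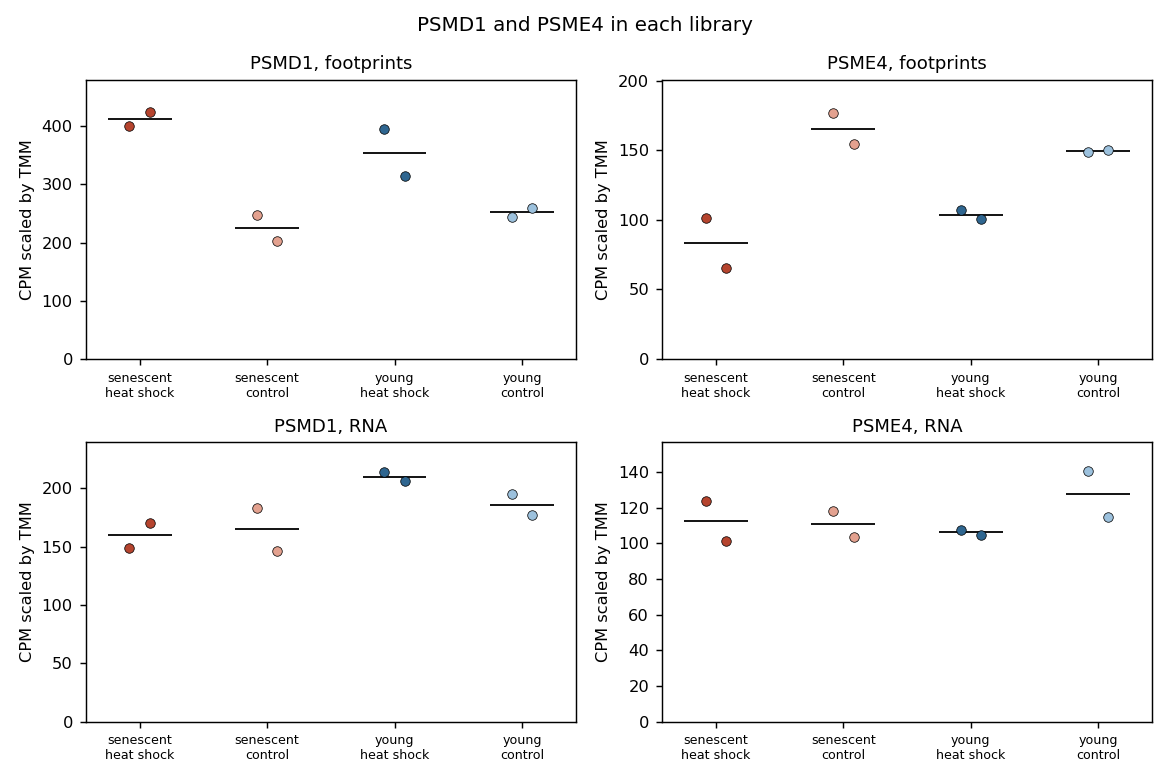
PSMD1 (left) and PSME4 (right) in footprints (top) and RNA (bottom), in CPM scaled by TMM. Points are libraries and lines are group means. In footprints the 2 heat-shocked senescent libraries of PSMD1 (401 and 425) lie above both senescent controls and those of PSME4 (101 and 65.4) below both, whereas in RNA the senescent groups overlap.

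Every other gene of the 38 had a footprint log2 change above 0 in heat-shocked senescent cells, so that 37 of 38 (97.4%) were above 0, against 51.6% of all genes tested. The median was 0.50 for the 38 and 0.03 for all genes. Both heat-shocked libraries lay above both controls for 32 of the 38 (84.2%), against 26.8% of all genes. The size depended on the scaling. With library size only the median was 0.21 with 33 genes above 0, and that of all genes moved to −0.25. In limma on log2 TPM it was 0.19 with 32 above 0, and that of all genes was −0.24. Without the second heat-shocked senescent footprint library it was 0.32 with 35 above 0.

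Among the alpha subunits all 7 were above 0 with a median of 0.52, from 0.43 ± 0.20 for PSMA2 to 0.64 ± 0.18 for PSMA6. PSMA6, the alpha subunit with the most footprints, had 349 and 378 CPM in heat-shocked senescent cells and 216 and 252 CPM in senescent controls. The groups did not overlap, and its adjusted p was 0.0617 (edgeR's quasi-likelihood test). All 7 constitutive beta subunits were above 0, with a median of 0.58. PSMB2, a non-catalytic beta subunit, was the highest at 0.85 ± 0.29, and PSMB7, which cleaves after basic residues, was the lowest at 0.47 ± 0.19.

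PSMB5, the chymotrypsin-like subunit, had 234 and 359.7 footprint CPM in heat-shocked senescent cells and 194 and 215 CPM in senescent controls. PSMB6, the caspase-like subunit, had 186 and 375 CPM in heat-shocked senescent cells and 151 and 203 CPM in senescent controls. PSMB7 had 317 and 418 CPM in heat-shocked senescent cells and 276 and 254 CPM in senescent controls. The groups overlapped for PSMB6 only, and the second heat-shocked library was the higher for all 3. Footprints summed over the 7 constitutive beta subunits were 2039.7 and 2874 CPM in heat-shocked senescent cells and 1627 and 1621 CPM in senescent controls.

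The 6 ATPases were all above 0 with a median of 0.59, from 0.36 ± 0.20 for PSMC5 to 0.66 ± 0.18 for PSMC2. PSMC3 had 314 and 405 footprint CPM in heat-shocked senescent cells and 250.3 and 212 CPM in senescent controls, without overlap. The 11 non-ATPase subunits had a median of 0.40, and after PSMD1 the highest were PSMD4, a ubiquitin receptor, at 0.54 ± 0.19 and PSMD2 at 0.51 ± 0.19. PSMD2 had 1091 and 1249.9 CPM in heat-shocked senescent cells and 870.1 and 770.1 CPM in senescent controls. PSMD3, a subunit of the lid, was the lowest at 0.21 ± 0.17.

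The immunoproteasome subunits were at 0.18 ± 0.22 for PSMB8, 0.50 ± 0.55 for PSMB9 and 0.25 ± 0.31 for PSMB10. Of the activators, PSME1 had 161 and 262 footprint CPM in heat-shocked senescent cells and 116 and 158 CPM in senescent controls, a log2 change of 0.63 ± 0.26. PSME2 had 182 and 283 CPM in heat-shocked senescent cells and 123 and 163 CPM in senescent controls, a log2 change of 0.70 ± 0.24. The groups did not overlap for either gene of PA28 alpha/beta, and neither passed the threshold. PSME3 had 147 and 151 CPM in heat-shocked senescent cells and 126 and 123 CPM in senescent controls, a log2 change of 0.26 ± 0.17. PSME4 was the 1 gene of the 38 whose change was below 0.

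**Figure D3:**
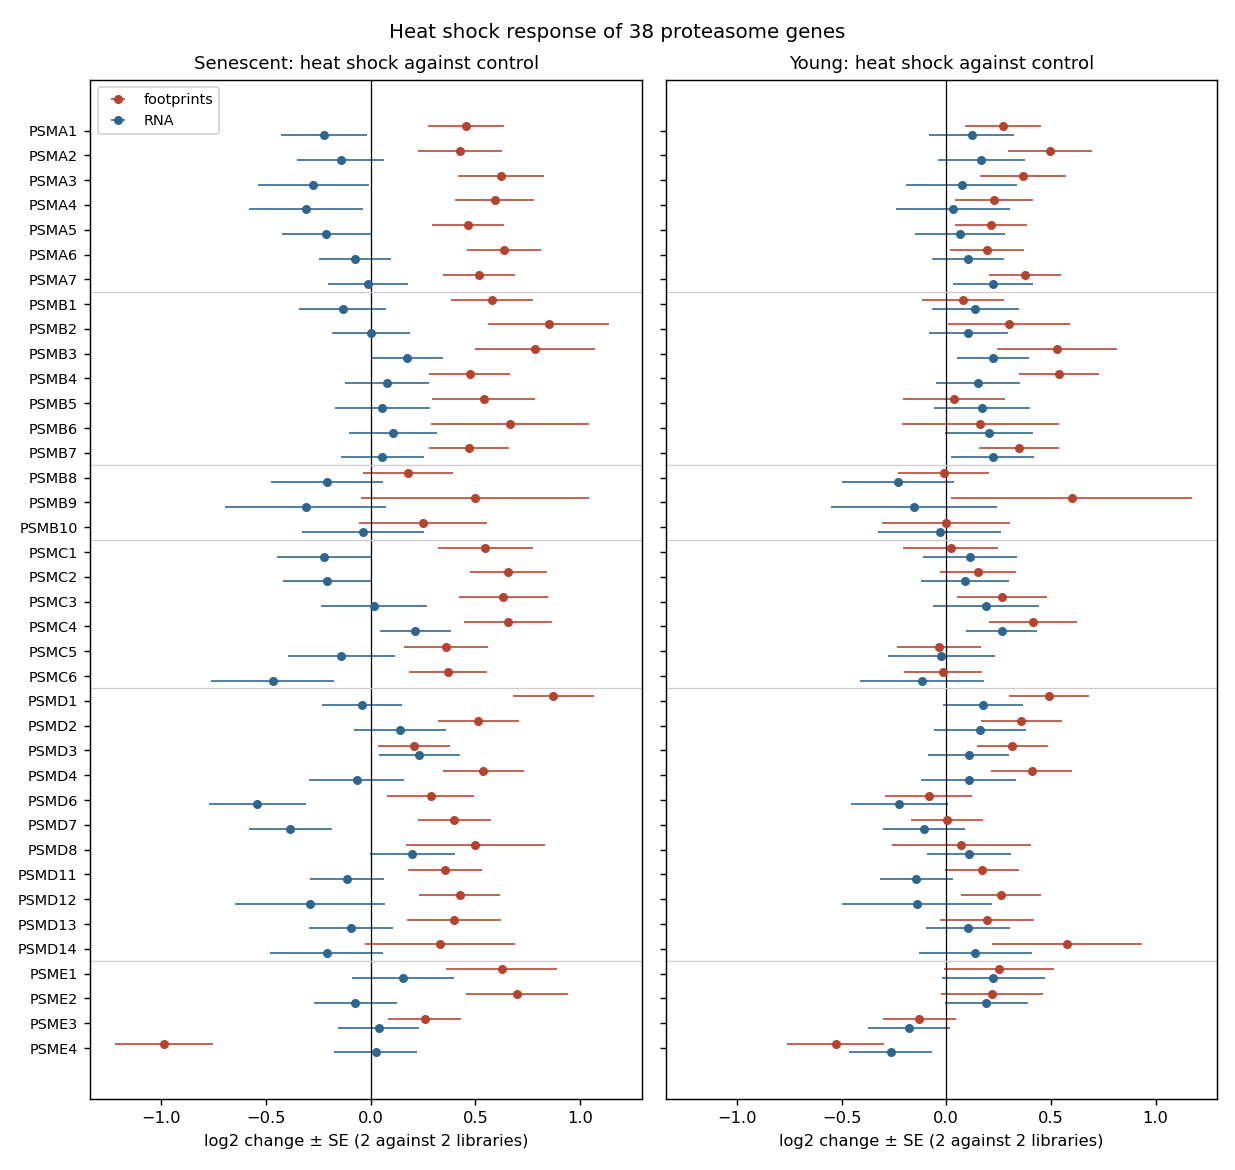
Log2 change ± SE with heat shock for each of the 38 genes in senescent (left) and young cells (right), for footprints (red) and RNA (blue), 2 against 2 libraries. In senescent cells 37 of 38 footprint changes lie above 0 and PSME4 lies at −0.99, while the RNA changes lie on both sides of 0.

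In RNA, none of the 38 was called with heat shock in senescent cells, against 0.577% of the 13177 genes tested. At an unadjusted p below 0.05 there was 1 (PSMD6, a subunit of the lid), against 8.29% of all genes, and DESeq2 called 0. The median log2 change was −0.07, with 14 of 38 above 0, and that of all genes was −0.01. The sign of this median depended on single libraries, at 0.08 without the first heat-shocked senescent library and 0.03 without the first senescent control. The alpha subunits were all below 0 (median −0.21, from −0.31 ± 0.27 for PSMA4 to −0.01 ± 0.19 for PSMA7), and 6 of 7 constitutive beta subunits were above 0 (median 0.06, from −0.13 ± 0.21 for PSMB1 to 0.17 ± 0.17 for PSMB3). The immunoproteasome subunits ran from −0.31 ± 0.39 for PSMB9 to −0.04 ± 0.29 for PSMB10. The ATPases ran from −0.47 ± 0.30 for PSMC6 to 0.21 ± 0.17 for PSMC4, the non-ATPase subunits from −0.54 ± 0.23 for PSMD6 to 0.23 ± 0.19 for PSMD3, and the activators from −0.07 ± 0.20 for PSME2 to 0.15 ± 0.24 for PSME1. With library size only, all 38 were below 0 (median −0.31) and the median of all genes moved to −0.23.

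Across the 38 genes, footprint and RNA changes of heat-shocked senescent cells were barely related, with a Pearson r of 0.08, and the footprint change exceeded the RNA change for 36. In young cells r was 0.60, with the footprint change the higher for 31. The genes share libraries and are no replicates, so these are descriptions. Translational efficiency, the footprint change minus the RNA change from 1 fit of all 16 libraries, had a median of 0.59 in heat-shocked against control senescent cells, with 36 of 38 above 0, against 0.07 and 54.0% of the 11166 genes tested. None of the 38 was called, against 2.33% of all genes. At an unadjusted p below 0.05 there were 15 (39.5%), against 17.0% of all genes, and DESeq2 called 4 (3 higher, 1 lower), against 5.80% of all genes. With the replicate number as a block within each assay, edgeR called 6 (5 higher, 1 lower), against 10.6% of all genes.

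The largest efficiency changes were those of PSME4 at −1.01 ± 0.31 (adjusted p = 0.118, edgeR's quasi-likelihood test) and PSMD1 at 0.92 ± 0.27 (adjusted p = 0.104). By role, the efficiency medians were 0.68 for alpha, 0.56 for constitutive beta, 0.39 for immunoproteasome beta, 0.69 for ATPase, 0.54 for non-ATPase and 0.35 for activator genes. As plain ratios of group mean TPM, PSME4 had 0.407 footprint TPM per RNA TPM in heat-shocked senescent and 0.880 in senescent control cells, and PSMD1 had 1.28 in heat-shocked senescent and 0.726 in senescent control cells. In heat-shocked young cells PSME4 was at 0.561 and PSMD1 at 0.867, against 0.640 and 0.663 in young controls. The order of heat shock and control was thus the same in young as in senescent cells for both genes, by a smaller step.

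In heat-shocked young cells none of the 38 was called in footprints, against 1.15% of all genes, in RNA, against 1.14%, or in efficiency, against 0.0896%. At an unadjusted p below 0.05 there were 3 in footprints (PSMA2, PSMB4 and PSMD1), against 16% of all genes, 0 in RNA, against 10.1%, and 0 in efficiency, against 4.10%. DESeq2 called 0 in each. PSMD1 had 395 and 315 footprint CPM in heat-shocked young cells and 245 and 259.6 CPM in young controls, a log2 change of 0.49 ± 0.19. PSME4 had 107 and 100.3 CPM in heat-shocked young cells and 149 and 149.9 CPM in young controls, a log2 change of −0.53 ± 0.23. Neither gene's groups overlapped, and each change had the sign it had in senescent cells. In this comparison 27.4% of all genes and 60.5% of the 38 were higher without overlap, and 31.6% of all genes and 5.26% of the 38 were lower.

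The footprint median of the 38 was 0.22 in young cells, with 31 above 0, and −0.01 over all genes, but it was −0.05 with 15 above 0 under library size only, where that of all genes was −0.28. By role the extremes were PSMA2 at 0.49 ± 0.20 and PSMA6 at 0.20 ± 0.18 for alpha, PSMB4 at 0.54 ± 0.19 and PSMB5 at 0.04 ± 0.24 for constitutive beta, and PSMB9 at 0.60 ± 0.58 and PSMB8 at −0.01 ± 0.22 for the immunoproteasome. They were PSMC4 at 0.41 ± 0.21 and PSMC5 at −0.03 ± 0.20 for the ATPases, PSMD14, the deubiquitinase of the lid, at 0.58 ± 0.36 and PSMD6 at −0.08 ± 0.21 for the non-ATPase subunits, and PSME1 at 0.25 ± 0.26 and PSME4 for the activators. PSMB5 had 190.3 and 261 CPM in heat-shocked young cells and 218 and 221 CPM in young controls, so the groups overlapped. In RNA the young median was 0.11 with 27 above 0, from −0.26 ± 0.20 for PSME4 to 0.27 ± 0.17 for PSMC4, and it was −0.18 under library size only.

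The heat response was not shown to differ between senescent and young cells for any of the 38. The test of the difference between the 2 responses called none in footprints, against 0% of all genes, in RNA, against 0%, or in efficiency, against 0.00896%. At an unadjusted p below 0.05 there were 0 of the 38 in each, against 4.91% of all genes in footprints, 0.903% in RNA and 2.23% in efficiency, and DESeq2 called 0 in each. For PSMD1 footprints the difference, senescent minus young, was 0.38 ± 0.27 with a 95% interval of −0.23 to 1.00. For PSME4 it was −0.46 ± 0.33 with an interval of −1.20 to 0.29. Over the 38 genes the median difference was 0.26 in footprints with 32 above 0, −0.17 in RNA with 6 above 0 and 0.42 in efficiency with 36 above 0. With 1 library left out in turn these medians ran from 0.13 to 0.39 in footprints, from −0.35 to −0.03 in RNA and from 0.24 to 0.63 in efficiency, with both ends of each range set by a heat-shocked senescent library. The intervals include no difference as well as differences as large as the responses.

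Between senescent and young controls none of the 38 was called in RNA, against 0.0379% of all genes, in footprints, against 0%, or in efficiency, against 0.00896%. With an unadjusted p below 0.05 there were 1 in RNA (PSMB9), against 7.20% of all genes, 0 in footprints, against 7.84%, and 0 in efficiency, against 0.779%. DESeq2 called 0 in each. The constitutive genes lay near 0. Role medians in RNA were −0.01 for alpha, 0.00 for constitutive beta, −0.12 for ATPase, 0.03 for non-ATPase and 0.18 for activator genes, and in footprints they were −0.08 for alpha, −0.11 for constitutive beta, −0.20 for ATPase, −0.04 for non-ATPase and 0.03 for activator genes. Among the constitutive genes and activators the RNA differences ran from −0.29 ± 0.17 for PSMD11 to 0.33 ± 0.20 for PSME2.

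The immunoproteasome genes had the largest RNA differences between senescent and young controls, with a median of 0.59 in RNA and 0.33 in footprints. PSMB8 had 23.6 and 25.2 RNA CPM in senescent controls and 13.6 and 18.8 CPM in young controls, a difference of 0.59 ± 0.27 on the log2 scale. PSMB9 had 4.45 and 7.05 CPM in senescent controls and 2.46 and 2.88 CPM in young controls, a difference of 1.11 ± 0.39. PSMB10 had 22.9 and 32.4 CPM in senescent controls and 16.04 and 22.7 CPM in young controls, a difference of 0.51 ± 0.29. The senescent libraries were the higher without overlap for all 3, which held for 10 of the 38 genes (26.3%), against 17.8% of all genes. Their adjusted p was 0.57 to 0.80 in edgeR's quasi-likelihood test and 0.069 to 0.078 with the replicate number as a block. With 1 library left out in turn the differences ran from 0.37 to 0.85 for PSMB8, from 0.74 to 1.40 for PSMB9 and from 0.24 to 0.78 for PSMB10.

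Under heat shock the same 3 genes were again the higher in senescent cells. PSMB8 had 20.2 and 22.1 RNA CPM in heat-shocked senescent and 11.3 and 16.3 CPM in heat-shocked young cells, a log2 difference of 0.62 ± 0.27. PSMB9 had 4.69 and 4.57 CPM in heat-shocked senescent and 1.61 and 3.22 CPM in heat-shocked young cells, a log2 difference of 0.95 ± 0.39. PSMB10 had 23.9 and 30.0 CPM in heat-shocked senescent and 16.1 and 21.9 CPM in heat-shocked young cells, a log2 difference of 0.51 ± 0.29. With 1 library left out in turn the differences ran from 0.38 to 0.88 for PSMB8, from 0.52 to 1.50 for PSMB9 and from 0.30 to 0.73 for PSMB10. None was called without the block (0% of all genes, adjusted p 0.42 to 0.52, edgeR's quasi-likelihood test), 1 of the 38 had an unadjusted p below 0.05 (PSMB9), against 11.5% of all genes, and DESeq2 called 0. With the replicate number as a block all 3 were called (adjusted p 0.041 to 0.049), which is 7.89% of the 38, against 13.7% of all genes called and 8.12% called as higher.

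Most other genes of the 38 had RNA differences below 0 between heat-shocked senescent and young cells. The alpha subunits were all below 0 (median −0.30, from −0.49 ± 0.27 for PSMA3 to −0.10 ± 0.17 for PSMA6). The ATPases had a median of −0.35 with 1 of 6 above 0, from −0.54 ± 0.30 for PSMC6 to 0.05 ± 0.17 for PSMC4. PSMB1 at −0.31 ± 0.21 and PSMB5 at 0.12 ± 0.23 were the extremes of the constitutive beta subunits, PSMD6 at −0.42 ± 0.23 and PSMD2 at 0.26 ± 0.22 those of the non-ATPase subunits, and PSME2 at 0.07 ± 0.20 and PSME3 at 0.28 ± 0.19 those of the activators. Over the 38 the median was −0.13, and −0.04 over all genes. With 1 library left out in turn it ran from −0.32 without the second heat-shocked senescent library to 0.03 without the first, so its sign rested on that library. This comparison shares its heat-shocked libraries with the heat responses above.

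In footprints PSMB8 had 30.5 and 31.8 CPM in heat-shocked senescent, 27.9 and 27.2 CPM in senescent control, 23.7 and 19.8 CPM in heat-shocked young and 22.2 and 21.7 CPM in young control cells. Every senescent library thus exceeded every young one. The log2 differences of senescent from young cells were 0.52 ± 0.22 under heat shock and 0.33 ± 0.21 in controls. PSMB9 had 9.48 and 9.13 CPM in heat-shocked senescent, 3.75 and 9.29 CPM in senescent control, 2.50 and 6.85 CPM in heat-shocked young and 3.30 and 2.91 CPM in young control cells. These values rest on 12 to 70 counts per library, and the differences were 0.98 ± 0.56 under heat shock and 1.08 ± 0.56 in controls. The first ran from 0.40 without the first heat-shocked young library to 1.87 without the second, and that in controls from 0.26 without the second senescent control to 1.57 without the first. PSMB10 had 26.3 and 51.6 CPM in heat-shocked senescent, 31.2 and 33.8 CPM in senescent control, 25.8 and 25.7 CPM in heat-shocked young and 24.3 and 27.3 CPM in young control cells. Its difference under heat shock, 0.59 ± 0.31, rested on the second heat-shocked senescent library and was −0.0040 without it.

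**Figure D4:**
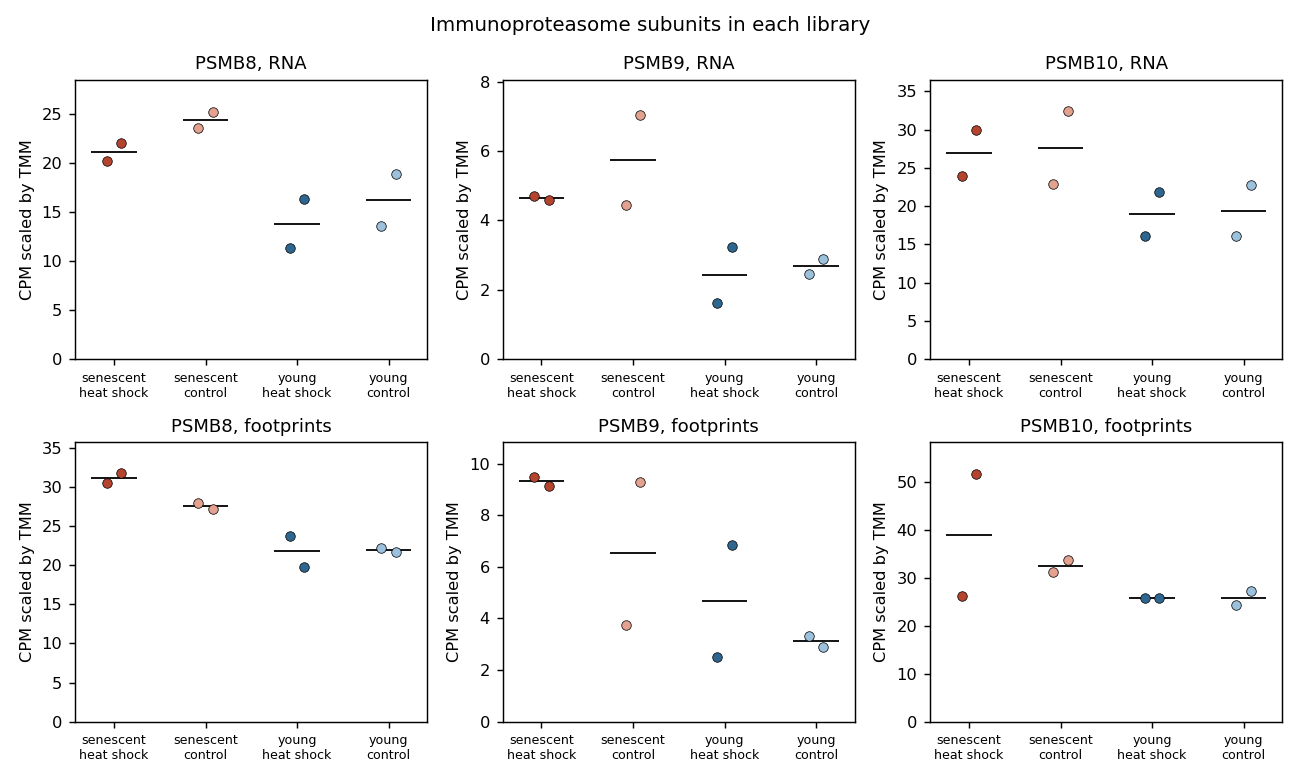
PSMB8, PSMB9 and PSMB10 in RNA (top) and footprints (bottom), in CPM scaled by TMM, with points for libraries and lines for group means. PSMB8 footprints are at 27.2 to 31.8 CPM in the 4 senescent libraries and 19.8 to 23.7 CPM in the 4 young ones.

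Set against the constitutive subunit that each replaces, the immunoproteasome subunits were minor in all groups. PSMB8 RNA was at 10.9% and 8.57% of PSMB5 TPM in heat-shocked senescent, 11.6% and 11.5% in senescent control, 6.24% and 7.53% in heat-shocked young and 8.50% and 9.07% in young control cells. PSMB9 RNA was at 2.97% and 2.22% of PSMB6 TPM in heat-shocked senescent, 2.60% and 4.23% in senescent control, 0.896% and 1.50% in heat-shocked young and 1.60% and 1.52% in young control cells. PSMB10 RNA was at 15.6% and 14.3% of PSMB7 TPM in heat-shocked senescent, 13.3% and 18.3% in senescent control, 7.82% and 10.8% in heat-shocked young and 9.58% and 12.5% in young control cells. Within each treatment the senescent libraries were the higher for all 3 pairs. In footprints the ratios overlapped under heat shock for PSMB8 and were without overlap for the other 2 pairs. Under control they did not overlap for any pair, with PSMB8 at 12.9% and 11.9% in senescent against 9.13% and 8.82% in young cells.

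In footprints under heat shock none of the 38 was called between senescent and young cells, against 0.00886% of all genes. Those at an unadjusted p below 0.05 were 2, PSMB8 and PSME2 (0.56 ± 0.24), against 13.0% of all genes, and DESeq2 called 0. The median was 0.21 with 34 of 38 above 0, but 0.07 to 0.35 over libraries left out in turn. In efficiency none was called (0% of all genes) and 4 had an unadjusted p below 0.05, against 6.56% of all genes, among them PSMD1 at 0.61 ± 0.27, while DESeq2 called 0.

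Levels of the activators in RNA kept 1 order in every library, with PSME1 and PSME2 above PSME3 and PSME3 above PSME4. PSME1 had 197 and 233 TPM in heat-shocked senescent, 209 and 241 TPM in senescent control, 178 and 211 TPM in heat-shocked young and 183 and 218 TPM in young control cells. PSME2 had 198 and 224 TPM in heat-shocked senescent, 265 and 251 TPM in senescent control, 234 and 196 TPM in heat-shocked young and 237 and 214 TPM in young control cells. PSME1 was the higher of these 2 in some libraries and PSME2 in others. PSME3 had 97.5 and 96.9 TPM in heat-shocked senescent, 101 and 117 TPM in senescent control, 81.0 and 88.4 TPM in heat-shocked young and 114 and 116 TPM in young control cells. PSME4 had 32.6 and 22.5 TPM in heat-shocked senescent, 33.6 and 28.3 TPM in senescent control, 28.4 and 25.9 TPM in heat-shocked young and 44.4 and 34.1 TPM in young control cells. For PSME3 and PSME4 both heat-shocked young libraries lay below both young controls in TPM, and neither gene was called. In RNA CPM scaled by TMM, 5 of the 38 genes (13.2%) were lower without overlap in heat-shocked young cells, against 20.7% of all genes.

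Other interferon-responsive genes were examined beside the immunoproteasome. Of 22 listed interferon-stimulated genes 19 were tested in RNA and 14 in footprints. Under heat shock the median log2 difference of senescent from young cells was 0.70 in RNA with 18 of 19 above 0 and 1.04 in footprints with 14 of 14 above 0. In controls it was 0.72 in RNA with 17 of 19 above 0 and 0.59 in footprints with 14 of 14 above 0. None of these genes was called in any of the 4. With the replicate number as a block, 4 were called in RNA under heat shock (ISG15, IFI6, IFIT3 and IRF1) and 3 in controls (ISG15, IFI6 and OAS2), all higher, against 13.7% and 3.72% of all genes, and none in footprints.

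The second senescent library stood apart for these genes in both assays. The mean log2 CPM of the tested genes in RNA was 1.50 and 2.38 in heat-shocked senescent, 1.67 and 2.93 in senescent control, 1.07 and 1.25 in heat-shocked young and 1.26 and 1.56 in young control cells. In footprints it was 2.91 and 4.10 in heat-shocked senescent, 2.88 and 4.05 in senescent control, 2.47 and 2.53 in heat-shocked young and 2.83 and 2.77 in young control cells. The first senescent control footprint library was thus close to the young controls.

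Of 8 listed antigen presentation genes all were tested in both assays. Under heat shock the median difference of senescent from young cells was 0.40 in RNA with 8 of 8 above 0 and 0.44 in footprints with 5 of 8 above 0. In controls it was 0.50 in RNA and 0.67 in footprints, with 7 of 8 above 0 in each. None was called without the replicate block. TAP1, the peptide transporter subunit, had the highest RNA difference of the 8, at 0.88 ± 0.27 under heat shock and 0.89 ± 0.27 in controls. With the replicate number as a block its adjusted p was 0.0159 under heat shock and 0.0280 in controls (edgeR's quasi-likelihood test). Its footprint difference was −0.27 ± 0.29 under heat shock and 0.66 ± 0.28 in controls.

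Markers of other cell types were low beside those of fibroblasts, which summed to 17962 to 36378 RNA CPM. The 5 endothelial markers summed to 37.4 to 60.3 RNA CPM in the 4 senescent and 30.6 to 34.1 CPM in the 4 young libraries, with CDH5 at 0 in all, and the 7 epithelial markers to 146 to 192 CPM in senescent and 88.8 to 123 CPM in young libraries. The 6 leukocyte markers summed to 93.5 to 201 CPM in senescent and 99.7 to 184 CPM in young libraries, with CD3E at 0 in all. Their part in the immunoproteasome difference was not tested.

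Of 31 listed genes that assemble, accompany or regulate the proteasome, 28 were tested in each assay. With heat shock in senescent cells 2 of 28 were called in footprints, both higher, against 8.35% of all genes (3.12% higher). ZFAND2A (AIRAP), a heat- and arsenite-inducible protein that binds the 19S cap, had 115 and 45.0 footprint CPM in heat-shocked senescent cells and 3.54 and 3.21 CPM in senescent controls, a log2 change of 4.57 ± 0.46. PSMD10 (gankyrin), a chaperone that assembles the 19S base, had 112 and 134 CPM in heat-shocked senescent cells and 60.4 and 67.4 CPM in senescent controls, a log2 change of 0.94 ± 0.20 (adjusted p = 0.0269, edgeR's quasi-likelihood test). POMP, the maturation protein of the 20S core, had 356 and 507 CPM in heat-shocked senescent cells and 234 and 271 CPM in senescent controls, a log2 change of 0.77 ± 0.25 that did not pass (adjusted p = 0.0910, edgeR's quasi-likelihood test). In heat-shocked young cells ZFAND2A was the 1 called gene, at 5.58 ± 0.43 in footprints and 2.92 ± 0.30 in RNA. Of all genes, 1.15% were called there in footprints and 1.14% in RNA. ZFAND2A RNA was at 81.2 and 43.3 CPM in heat-shocked senescent cells and 22.4 and 21.5 CPM in senescent controls, and its change of 1.50 ± 0.30 did not pass (adjusted p = 0.107, edgeR's quasi-likelihood test). With the replicate number as a block it passed, as did ZFAND5, a proteasome-binding zinc finger protein, at −0.79 ± 0.17 in senescent and −0.61 ± 0.17 in young cells, against 6.28% of all genes in senescent and 8.77% in young cells. None of the 28 was called between senescent and young cells in either assay without the block. With the block ZFAND2A at −1.15 ± 0.29 and NFE2L2, a regulator of the oxidative stress response, at −0.53 ± 0.21 were called in RNA under heat shock. The block called 13.7% of all genes in that comparison. The tissue-specific subunits PSMA8 and PSMB11 had 0 footprints in all libraries.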

How the data were processed

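RNA-seq (TruSeq RNA kit) and Ribo-seq (footprints left by RNase If) were measured in 16 libraries, per the labels. Per the submitters' processing notes STAR, RSEM, Bowtie2 and the build hg19 were used, and no source used here gives the gene annotation. Deposited per gene were expected counts from RSEM, held in the files as whole numbers, and TPM, which RSEM scales by length. All 32 value columns were used (0 left out). Strand is not stated, so overlapping antisense transcripts cannot be told apart. RSEM divides reads between similar genes. There are no molecular identifiers.

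The filter on low expected counts was filterByExpr and the scaling TMM, and tests used edgeR 4.0.16 (quasi-likelihood test, limma 3.58.1, R 4.3.3), with all 8 libraries of an assay in 1 fit and Benjamini-Hochberg adjustment over 13177 RNA and 11288 footprint genes (threshold 0.05). Efficiency came from 1 fit of 16 libraries over 11166 genes. Each SE was computed from the weights of the fitted model and the gene's moderated quasi-likelihood dispersion. Labels do not say that replicates were separate cultures, so p-values measure the spread between these libraries, which may be technical. The young control footprint libraries (chi-square per degree of freedom 1.73) were kept as 2, and as 1 in an alternative.

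Same-numbered libraries were checked for pairing. The difference of replicate 1 from replicate 2 correlated across genes at 0.481 to 0.658 in the 6 pairs of RNA groups and at −0.04 to 0.33 in footprints. The replicate numbers come from the labels with no meaning given. The changes, SE and calls reported come from fits without a block, which leave this pairing of the RNA libraries out. The choice matters for RNA calls between senescent and young cells. In controls 0.0379% of all genes were called without the block and 3.72% with it, and under heat shock 0% and 13.7%. The fit with the replicate number as a block is given where it changes a call of a gene or list reported.

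Alternatives were RLE scaling, library size only, no filter, DESeq2 1.42.0, the block, limma-trend (log2(TPM + 1), genes with at least 1 TPM in at least 2 libraries) and each library left out in turn. Counting the young control footprint libraries as 1 was chosen after seeing the data. The members, lists and tests were chosen with earlier results of these data known. Named are called members, else the highest and lowest of each role group, with library values for called members, catalytic subunits and their counterparts, activators and the most abundant member of the other role groups, and called genes of the list of other proteasome pathway genes. PSMD4, PSMD2, POMP, ZFAND5, NFE2L2 and the interferon-responsive genes were also named after their values were seen. SHFM1 was matched as SEM1. Promoter windows are from RefSeq tables on GRCh38.p14, and lengths are those of the longest transcript in GENCODE v29.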

Additional observations from a re-analysis of the deposited data

How the results depend on the processing

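Of the 38 genes, 31 kept the direction of their footprint change with heat shock in senescent cells under all 15 alternatives, and 34 kept that of their efficiency change under all 22. In RNA the same held for only 5 in senescent and 5 in young cells. Members called in footprints with heat shock in senescent cells, 2 as reported, were 1 under library size only (PSME4), 1 in limma on log2(TPM + 1) (PSME4), 5 in DESeq2, 9 with the replicate number as a block (8 higher: PSMA3, PSMA6, PSMB2, PSMB3, PSMC2, PSMC4, PSMD1 and PSME2, and PSME4 lower), 0 with the young control libraries counted as 1, and 0 to 10 with each library left out (10 without the first heat-shocked senescent library). For efficiency in the same comparison, 0 as reported became 4 in DESeq2, 6 with the replicate block and 0 to 3 with a library left out. Between heat-shocked senescent and young cells, 0 RNA calls became 3 with the block, and 0 footprint calls 0 to 1 with a library left out. The block changed no other call of a member. The RNA change of PSMD1 in heat-shocked young cells turned to −0.11 under library size only and −0.087 in limma on TPM. In heat-shocked senescent cells it turned to 0.13 without the first senescent control and 0.04 without the first heat-shocked library. PSME4 RNA there turned to −0.20 under library size only, −0.18 in limma on TPM, −0.07 without the second senescent control and −0.14 without the first heat-shocked library, and over libraries left out it ran from −0.14 to 0.15. The PSMB10 footprint difference between heat-shocked senescent and young cells ran from −0.0040 to 0.97 over libraries left out. The cause was not tested. With 2 libraries per group and the spread between them, changes smaller than about the intervals given could not be detected. PSMB9 also had few footprint counts, 12 to 70 per library.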
